A study of Mus musculus with 50 samples.

Results

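The genes described here are 8 factors of the pluripotent state of embryonic stem cells: Pou5f1, Sox2, Sall4, Sall1, Utf1, L1td1, Lin28a and Trim71. They were taken by gene symbol, not by a cut on their values, from the 19455 genes of the deposited table. Earlier results of these data were known when they were chosen. They were measured in KH2 cells, a mouse embryonic stem cell line of C57BL/6 x 129/Sv background, in 5 genotypes. Triple_KO cells are labelled as knockouts of Ythdf1, Ythdf2 and Ythdf3, Ythdf1_KO, Ythdf2_KO and Ythdf3_KO cells as knockouts of 1 of these genes, and WT cells carry none of the knockouts. The question posed by the design is whether the decay of mRNA differs between the single knockouts, the triple knockout and WT. All groups, WT included, grew in serum with LIF, were plated on gelatin 48 h before treatment and received 5 µM actinomycin D, which blocks transcription, for 0, 4 or 8 h. The replicates, A and B, number 2 in each group. Duplicate libraries at 0 h and 8 h gave 4 libraries per genotype at those times and 2 at 4 h, or 50 in all. The sources used here do not say whether A and B were separate cultures, how many clones stand behind a knockout or which part of each gene was edited.

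OCT4, the product of Pou5f1, and SOX2 bind DNA side by side at many enhancers of embryonic stem cells and maintain their own expression. SALL4 and SALL1 are zinc finger proteins that recruit the NuRD corepressor complex, UTF1 is a chromatin protein, and L1TD1 is an RNA-binding protein that arose from the open reading frame of a retrotransposon. LIN28A blocks the maturation of let-7 microRNAs, and TRIM71, the mammalian relative of worm LIN-41, represses target mRNAs and is itself a let-7 target. YTHDF proteins bind N6-methyladenosine (m6A), a modified base of mRNA that is linked to faster decay. In embryonic stem cells m6A is known to lie on mRNAs of pluripotency factors and to aid the exit from the pluripotent state.

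Values are FPM, reads scaled to the total of a library in the same way as RPM, from sequencing of the 3′ end. They carry no length correction and are compared here between samples, not between genes. Library totals ran from 796921 to 2341410 reads, so that 1 read is worth 0.427 to 1.25 FPM. Tests used limma on log2(FPM + 1) with duplicates averaged (n = 2 replicates per genotype and time) and Benjamini-Hochberg adjustment over all genes tested at 0.05. Errors of log2 values are standard errors and errors of FPM are SD over libraries, and the 4 comparisons with WT share the WT libraries. Of the 8 genes, 7 passed the filter on low values (5 FPM in 2 replicate means), and Trim71 did not. Every change over time is relative to the library total. The share of that total held by the listed genes was 44.3 ± 0.720% in Triple_KO and 43.3 ± 0.654% in WT at 0 h, and 41.1 ± 1.48% in Triple_KO and 33.2 ± 0.266% in WT at 8 h (n = 4 libraries). The label of embryonic stem cells was checked with 13 markers, among them the 8 genes: all except Nanog and Trim71 had at least 18.6 FPM in every 0 h library, whereas Nanog was listed at 0 to 3.38 FPM. Reads of the targeted genes did not follow the genotype labels throughout. In the libraries labelled Triple_KO at 0 h, Ythdf2 was higher than in WT (0.73 ± 0.12 on the log2 scale, adjusted p = 1.72e-07), which goes against the label, Ythdf1 was lower (-0.41 ± 0.13, adjusted p = 0.00923) and Ythdf3 did not pass (-0.08 ± 0.19). In the single knockouts, Ythdf2 was lower in Ythdf2_KO (-0.62 ± 0.12, adjusted p = 5.72e-05), while Ythdf1 in Ythdf1_KO (-0.0021 ± 0.13) and Ythdf3 in Ythdf3_KO (0.09 ± 0.19) did not pass. Where the edit lies outside the sequenced 3′ end such reads are no check of a knockout, so the genotypes below are those of the labels.

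YTHDF proteins bind methylated adenosine, which in mammals lies mostly in the motif DRACH and often near the stop codon, so the GGACT form of the motif nearest the stop codon is shown for the 7 genes tested. GGACT was searched on the transcript strand only, in the coding transcript of each gene in GENCODE M21 (build GRCm38). It was present in 90.9% of the 8724 tested genes that had such a transcript, and within 200 nt of the stop codon in 40.5%. The capitals mark the motif, and the genes are in the order of the difference in loss between Triple_KO and WT that is described further on.
Sall4: gaaacagttgGGACTcattggacca
L1td1: tgccgtggagGGACTgaccaaggat
Utf1: gcatccttggGGACTtgcgccaata
Sall1: ctggcccctgGGACTatgaactaca
Sox2: tgtgagggctGGACTgcgaactgga
Pou5f1: acctcaggttGGACTgggcctagtc
Lin28a: tctggggaagGGACTcccaggagca
Counted from the last base of the stop codon to the A of the motif, with negative values upstream, the sites lie at 8 nt in Sox2 (chr3:34651371-34651395, plus strand), -13 nt in Utf1 (chr7:139944965-139944989, plus strand) and 84 nt in Sall1 (chr8:89028282-89028306, minus strand). Those of Sall4 (chr2:168749593-168749617, minus strand) and Lin28a (chr4:134005701-134005725, minus strand) lie in the 3′ UTR at 424 and 392 nt. Those of L1td1 (chr4:98737528-98737552, plus strand) and Pou5f1 (chr17:35506315-35506339, plus strand) lie in the coding sequence at -576 and -831 nt. Sox2, Utf1 and Sall1 thus had the motif within 200 nt of the stop codon. A match is a stretch of letters and no measurement of methylation.

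Lin28a, Trim71 and Sall4 also hold a match to the let-7 seed. The mature let-7a of RefSeq (GRCm38.p6) is printed with its seed, bases 2 to 8, in capitals, followed by the matches to it (CTACCTC, transcript strand) in the 3′ UTRs of the 2 genes tested, in capitals as well.
mmu-let-7a-5p: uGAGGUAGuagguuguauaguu
Sall4 site: ggctttaatttatCTACCTCaa
Lin28a site 1: acagcctgttgaaCTACCTCat
Lin28a site 2: gatcgccacaaacCTACCTCac
The Sall4 match is at chr2:168748939-168748960 and the Lin28a matches are at chr4:134005188-134005209 and chr4:134004550-134004571, all on the minus strand. The 3′ UTR of Trim71 had 4 matches, and 2 of these lay beyond the 3′ end of its RefSeq transcript. Such a match was present in the 3′ UTR of 8.48% of the tested genes. The 8 genes differ in structure. Sox2 has a single exon, as 1.82% of tested genes do, and Sall1 and L1td1 have an internal exon of at least 400 nt (3455 and 936 nt), as 17.9% do. Sall4 was listed only by its short RefSeq isoform, from which its sequences are taken. No other gene had values identical to those of any of the 8 genes. Sox2 lies inside Sox2ot on the same strand, and Pou5f1, Sall4, Lin28a and Trim71 overlap a gene on the opposite strand (Gm19553, Gm14261, Gm13061 and C130032M10Rik). The use of strand in counting was not given in the sources used here, so the reads of such partners could not be told apart.

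**Figure D1:**
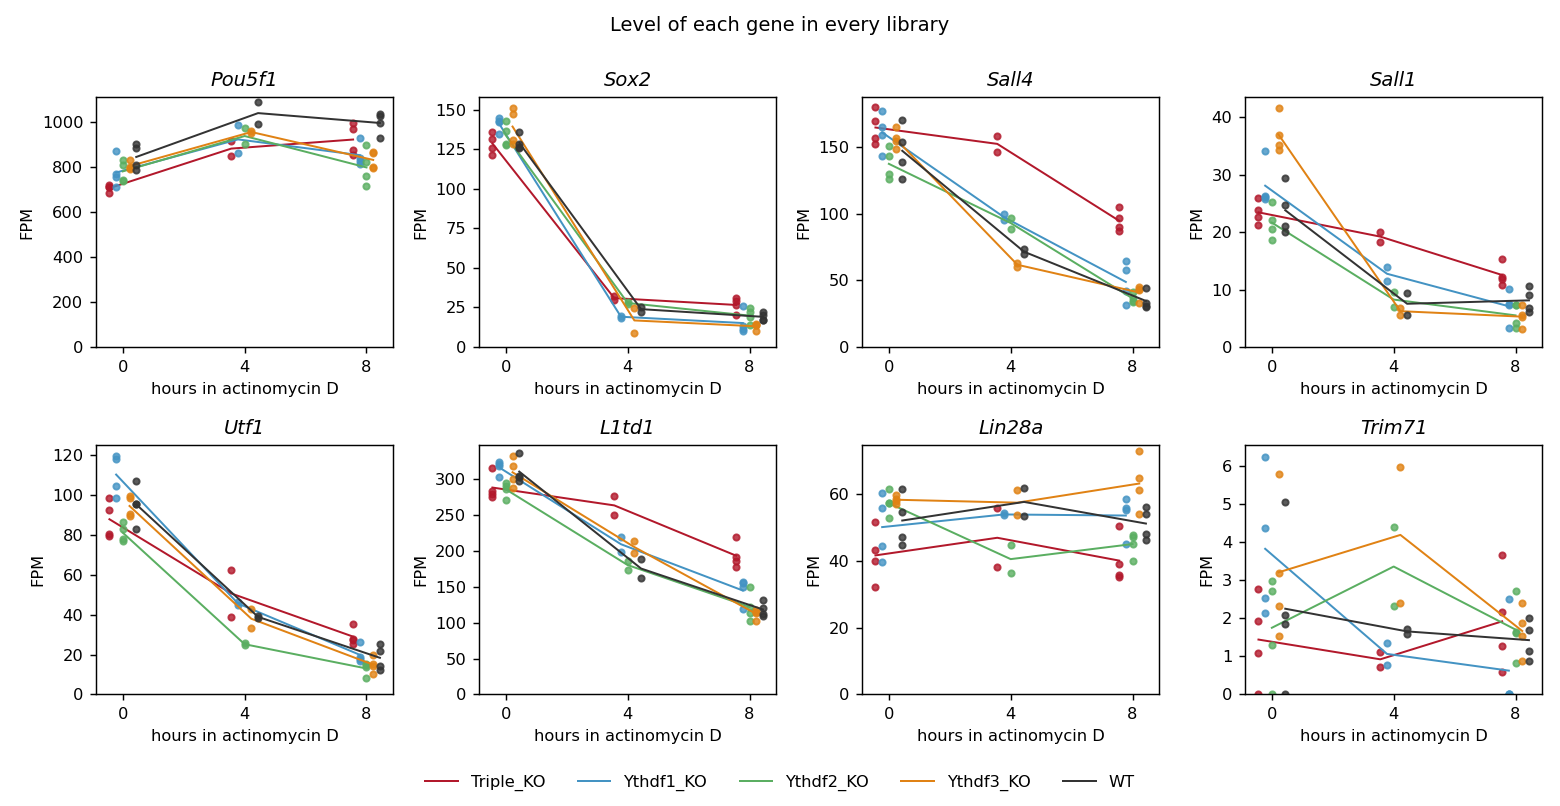
Level (FPM) of each of the 8 genes against hours in actinomycin D in every library (points, set side by side by genotype at 0, 4 and 8 h) with the mean of each group (lines). Sox2 has 121 to 151 FPM at 0 h and at most 32.3 FPM at 4 h in every genotype, and Sall4, Sall1 and L1td1 in Triple_KO lie above the other genotypes at 8 h.

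Before the block of transcription, the members called against WT were 2 of the 7 in Triple_KO, 1 in Ythdf2_KO, 1 in Ythdf3_KO and 0 in Ythdf1_KO. Of all genes, 21.9%, 8.20%, 4.46% and 2.62% were called in that order. In Triple_KO, Pou5f1 had 710.2 and 685 FPM in replicate A and 712 and 719.6 FPM in replicate B, against 884, 902, 786 and 809 FPM in WT. The 4 Triple_KO libraries all lay below the 4 WT libraries, and within WT replicate A lay above replicate B. The difference was -0.26 ± 0.04 on the log2 scale (adjusted p = 7.70e-09). Lin28a had 39.9, 32.1, 43.2 and 51.5 FPM in Triple_KO, against 61.7, 47.3, 54.7 and 44.7 FPM in WT, ranges that overlap. Its difference of -0.32 ± 0.13 passed narrowly (adjusted p = 0.0492).

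These 2 were the members called in Triple_KO, both lower, where 21.9% of the 8697 genes tested were called in either direction and 7.65% were called lower. Without the filter on low values neither passed (adjusted p = 0.0647 for Pou5f1 and 0.281 for Lin28a). The call of Pou5f1 was kept whichever Triple_KO or WT replicate was left out (-0.34 to -0.18), while that of Lin28a was lost without Triple_KO replicate A, WT replicate A or WT replicate B (-0.52 to -0.13 over the 4 cases). Sall4 (0.17 ± 0.08), L1td1 (-0.11 ± 0.06), Utf1 (-0.12 ± 0.10), Sall1 (-0.01 ± 0.17) and Sox2 (-0.01 ± 0.08) did not pass in Triple_KO. With TMM scaling L1td1 was also called (-0.16). The median of the 7 genes was -0.11, against 0.07 for all genes tested.

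In the single knockouts, Ythdf3_KO stood apart for 1 gene. Sall1 had 34.3, 36.9, 41.6 and 35.2 FPM in Ythdf3_KO, against 24.7, 21.1, 20.02 and 29.4 FPM in WT, so that all Ythdf3_KO libraries were above all WT libraries. It was higher by 0.63 ± 0.17 (adjusted p = 0.0131), the only member called in Ythdf3_KO, where 4.46% of genes were called. The call was lost without either Ythdf3_KO replicate or WT replicate A (0.57 to 0.68 over the 4 cases). In Ythdf2_KO the member called was Pou5f1, at 744.5, 832, 812 and 737 FPM, against 884, 902, 786 and 809 FPM in WT. The groups overlap, the difference was -0.11 ± 0.04 (adjusted p = 0.0467, with 8.20% of genes called), and it was lost with TMM scaling (-0.06), with edgeR (-0.08) and without either Ythdf2_KO replicate or WT replicate A (-0.13, -0.10 and -0.03). In Ythdf1_KO limma called 0 of the 7 genes, with 2.62% of genes called. At an unadjusted p under 0.05 there were 2, Pou5f1 (-0.12 ± 0.04, adjusted p = 0.0520) and Utf1 (0.21 ± 0.10, adjusted p = 0.279), and edgeR's quasi-likelihood test called 1, Pou5f1. Of all 8697 genes, 1215 had an unadjusted p under 0.05 with limma, and edgeR called 189.

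By mean level at 0 h, Pou5f1 was ordered, from the lowest, Triple_KO (707 ± 15.1 FPM), Ythdf1_KO (776 ± 67.6), Ythdf2_KO (781 ± 47.8), Ythdf3_KO (805 ± 18.6) and WT (845 ± 56.0), and the libraries of each neighbouring pair in that order overlapped. For Sall1 the order from the lowest was Ythdf2_KO (21.6 ± 2.84 FPM), Triple_KO (23.4 ± 2.00), WT (23.8 ± 4.21), Ythdf1_KO (28.1 ± 4.07) and Ythdf3_KO (37.0 ± 3.24), and among neighbours the libraries overlapped except those of Ythdf3_KO and Ythdf1_KO, whose nearest libraries had 34.3 and 34.2 FPM. For Sox2 all 5 means lay between 129 and 141 FPM, and the 20 libraries between 121 and 151.

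**Figure D2:**
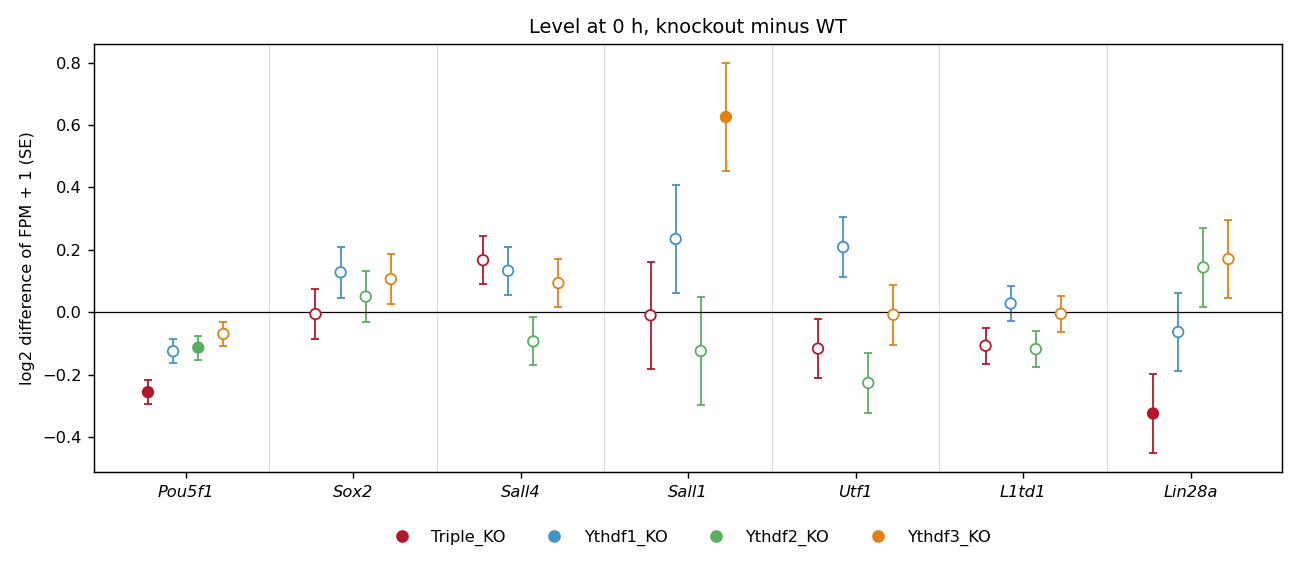
Difference in level at 0 h between each knockout and WT on the log2(FPM + 1) scale for the 7 genes tested, with standard errors (n = 2 replicates). Filled points passed the test at an adjusted p of 0.05 and open points did not: Pou5f1 and Lin28a are filled for Triple_KO, Pou5f1 for Ythdf2_KO and Sall1 for Ythdf3_KO.

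Markers of other cell types moved with genotype at 0 h. The 6 trophectoderm markers, all in the table, summed to 275 to 309.5 FPM in Triple_KO and 111 to 128 FPM in WT, led by Krt8 and Krt18, which are keratins of simple epithelia, while Elf5 was at 0 in both groups and Cdx2 at most 5.94 FPM in any library. The 10 feeder cell markers, all in the table and led by Acta2, summed to 209.5 to 256 FPM in Triple_KO and 117 to 125 FPM in WT, with Lum at 0 in both. The 11 germ layer markers summed to 19.9 to 33.5 FPM in Triple_KO and 15.2 to 22.8 FPM in WT, with Pax6 and Krt5 at 0 in both. In the single knockouts the trophectoderm markers summed to 181 to 195 FPM in Ythdf1_KO and 180 to 192 FPM in Ythdf2_KO, both above WT, and to 67.8 to 87.3 FPM in Ythdf3_KO, below WT. The feeder markers summed to 134 to 166 FPM in Ythdf1_KO, above WT, and to 94.1 to 102 FPM in Ythdf2_KO and 103 to 113 FPM in Ythdf3_KO, both below WT. The 13 stem cell markers, which include the 8 genes, summed to 2550 to 2678 FPM in Triple_KO, against 2985 to 3224 FPM in WT, without overlap, while the single knockouts (2918 to 3367 FPM) overlapped WT. The part of these differences in the calls at 0 h (Pou5f1 and Lin28a in Triple_KO, Pou5f1 in Ythdf2_KO and Sall1 in Ythdf3_KO) was not tested. In such bulk samples fewer cells of a type and less RNA per cell cannot be told apart.

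Over 8 h without transcription, some members fell, to differing degrees, and others held their share. In WT, Sox2 (-2.70 ± 0.22 on the log2 scale), Utf1 (-2.36 ± 0.19), Sall4 (-2.07 ± 0.13), Sall1 (-1.46 ± 0.30) and L1td1 (-1.38 ± 0.09) fell (adjusted p at most 4.59e-05), while Pou5f1 rose by 0.24 ± 0.05 relative to the library total (adjusted p = 0.000136). Lin28a (-0.02 ± 0.16) did not pass. Of the 7 genes, 6 were thus called in WT, 5 lower and 1 higher, where 56.9% of the 9078 genes tested were called, 55.2% lower and 1.73% higher. The median of the 7 was -1.46, against -0.81 for all genes. Sox2 lay among the lowest 2.47% of all genes tested and Pou5f1 among the highest 4.37%. Sall1 and L1td1 lay among the lowest 25.5% and 27.7% in that order.

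The values behind these changes in WT are as follows. Sox2 had 128, 126, 136 and 127 FPM at 0 h, 22.4 and 25.5 FPM at 4 h, and 17.1, 17.1, 21.9 and 20.2 FPM at 8 h. Nearly all of its fall lay in the first 4 h, at -2.39 on the log2 scale, against -0.32 in the second 4 h. Utf1 had 107, 95.5, 95.4 and 83.2 FPM at 0 h, 39.6 and 38.3 FPM at 4 h, and 21.7, 12.04, 14.3 and 25.5 FPM at 8 h. Its fall was spread evenly over both intervals, -1.26 and -1.10. Lin28a had 44.7 to 61.7 FPM at 0 h, 62.0 and 53.4 FPM at 4 h and 46.4 to 56.3 FPM at 8 h, which overlap at all times.

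The direction of Lin28a in WT depended on the scaling, and that of Pou5f1 did not. With TMM scaling the median of all genes in WT was -0.19, and Lin28a (0.65) as well as Pou5f1 (0.92) passed as higher. The 5 falling genes stayed lower and called in WT with TMM (-2.04 to -0.71) and median scaling (-2.26 to -0.93), and with edgeR.

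In the single knockouts the same 5 genes fell. Sox2 changed by -3.23 ± 0.22 in Ythdf1_KO, -2.73 ± 0.22 in Ythdf2_KO and -3.33 ± 0.22 in Ythdf3_KO. L1td1 changed by -1.13 ± 0.09 in Ythdf1_KO, -1.23 ± 0.09 in Ythdf2_KO and -1.45 ± 0.09 in Ythdf3_KO. Pou5f1 changed by 0.14 ± 0.05 in Ythdf1_KO, which passed (adjusted p = 0.0234), and by 0.03 ± 0.05 in Ythdf2_KO and 0.05 ± 0.05 in Ythdf3_KO, which did not. The members called were 6 in Ythdf1_KO, 5 in Ythdf2_KO and 5 in Ythdf3_KO, where 55.9%, 63.2% and 60.2% of genes were called.

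In Triple_KO the same 5 genes fell. Sox2 changed by -2.25 ± 0.22, Utf1 by -1.57 ± 0.19, Sall1 by -0.86 ± 0.30, Sall4 by -0.79 ± 0.13 and L1td1 by -0.58 ± 0.09, and Pou5f1 rose by 0.38 ± 0.05 (adjusted p at most 0.0251). Lin28a changed by -0.05 ± 0.16 and did not pass. Of the 7 genes, 6 were called in Triple_KO, where 29.2% of all genes were called and the median of all genes was -0.39. The call of Sall1 in Triple_KO was lost when either replicate was left out (-0.92 and -0.80) and with TMM scaling (-0.53), median scaling (-0.73) and edgeR (-0.52).

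**Figure D3:**
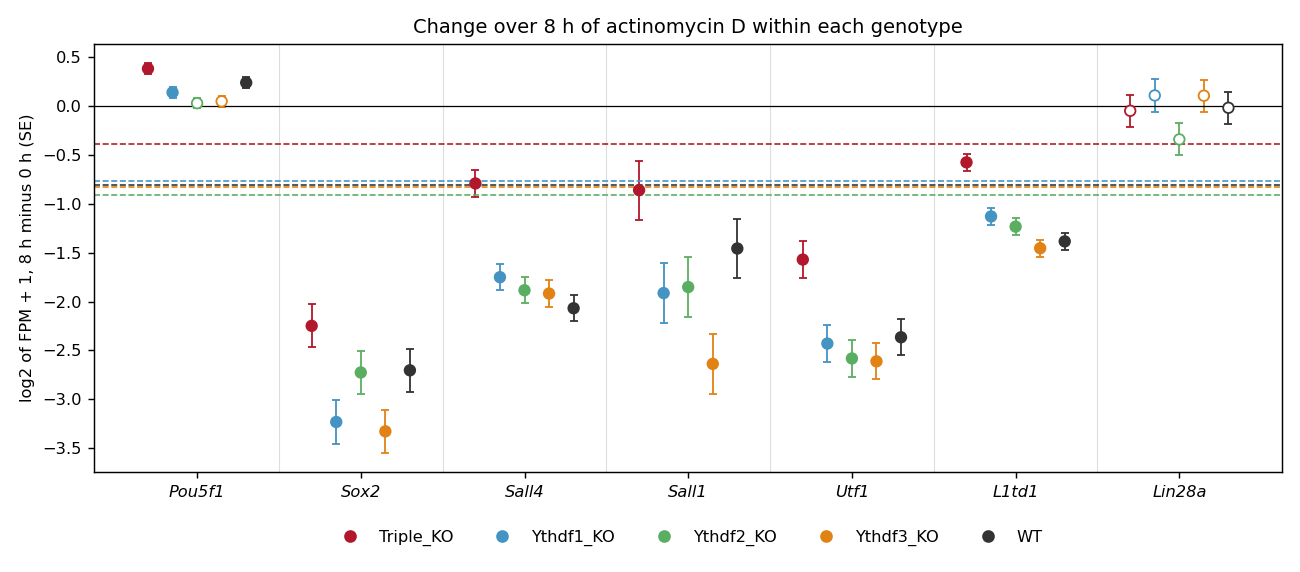
Change over 8 h of actinomycin D within each genotype, as the log2(FPM + 1) difference between 8 h and 0 h with standard errors (n = 2 replicates), for the 7 genes tested. Filled points passed the test, and dashed lines are the medians of all genes tested, -0.39 in Triple_KO and -0.81 in WT; Sox2 lies lowest in every genotype and Pou5f1 highest in every genotype except Ythdf3_KO, where Lin28a is.

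The difference in loss between Triple_KO and WT was tested as a genotype by time term, and 3 of the 7 genes passed: Sall4 (1.28 ± 0.19, adjusted p = 1.70e-06), L1td1 (0.81 ± 0.12, adjusted p = 2.80e-06) and Utf1 (0.79 ± 0.26, adjusted p = 0.0495). All 3 fell less in Triple_KO, where 7.24% of all genes passed and 7.22% in this direction. The median of all genes was 0.37, so values are read against it, and that of the 7 genes was 0.60. Sall4 stood in the highest 5.78% of genes, L1td1 in the highest 20.1% and Utf1 in the highest 20.8%. Sall1 (0.60 ± 0.43), Sox2 (0.45 ± 0.31), Pou5f1 (0.14 ± 0.08) and Lin28a (-0.03 ± 0.23) did not pass, and the last 2 lay below the median gene.

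Sall4 showed the widest gap. At 8 h it had 96.7, 87.3, 105 and 90.1 FPM in Triple_KO, against 44.5, 30.1, 32.9 and 30.8 FPM in WT. The lowest Triple_KO library was above the highest WT library. At 0 h it had 153, 169, 157 and 180.1 FPM in Triple_KO, against 171, 126, 139 and 154 FPM in WT, which overlap. Of the 0 h level, 57.5 ± 0.557% was left at 8 h in Triple_KO and 23.5 ± 2.39% in WT (SD, n = 2 replicates). The counts behind the 8 h values were 121 to 165 reads in Triple_KO and 30 to 39 in WT.

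L1td1 had 185, 191, 177 and 219 FPM at 8 h in Triple_KO, against 119.9, 109, 112 and 131 FPM in WT, again without overlap, and 67.1 ± 1.19% of its 0 h level was left in Triple_KO and 38.2 ± 3.39% in WT. Utf1 had 27.8, 27.4, 25.5 and 35.3 FPM at 8 h in Triple_KO, against 21.7, 12.04, 14.3 and 25.5 FPM in WT. The lowest Triple_KO library and the highest WT library of Utf1 lay side by side at 25.5 FPM, on 40 and 29 reads. Its call was lost in all 4 cases of a replicate left out (0.59 to 1.00), with a pseudocount of 0.5 or 5 (0.81 and 0.68), and without the filter.

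For the genes that did not pass, Sox2 had 30.8, 28.9, 26.8 and 20.02 FPM at 8 h in Triple_KO, against 17.1, 17.1, 21.9 and 20.2 FPM in WT, on 34 to 42 reads in Triple_KO and 15 to 26 in WT. Its groups overlap through 1 library of replicate B of Triple_KO. Sall1 had 15.4, 10.8, 12.1 and 11.8 FPM in Triple_KO, against 9.13, 6.02, 6.75 and 10.6 FPM in WT, which do not overlap, but these rest on 15 to 21 reads in Triple_KO and 6 to 12 in WT. Pou5f1 had 852, 994, 970.5 and 874 FPM at 8 h in Triple_KO, against 996, 1035, 929 and 1026 FPM in WT, which overlap.

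Scaling moved these values together with the median of all genes, which was 0.09 with median scaling, 0.08 with TMM and 0.00467 with edgeR. Sall4 (0.96, 0.95 and 0.92 in that order) and L1td1 (0.49, 0.48 and 0.42) were called under all of them, and Utf1 (0.49, 0.48 and 0.40) under none. Pou5f1 was below 0 under each (-0.18, -0.19 and -0.25), and with edgeR this passed (adjusted p = 0.00222), a smaller gain in Triple_KO than in WT. The 8 h groups also differed in the share of the library in listed genes (41.1 ± 1.48% in Triple_KO and 33.2 ± 0.266% in WT), and in the sums of trophectoderm markers (267 to 358 FPM in Triple_KO and 107 to 132 FPM in WT) and feeder markers (311 to 379 FPM in Triple_KO and 226 to 251 FPM in WT). Their part in the differences was not tested.

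**Figure D4:**
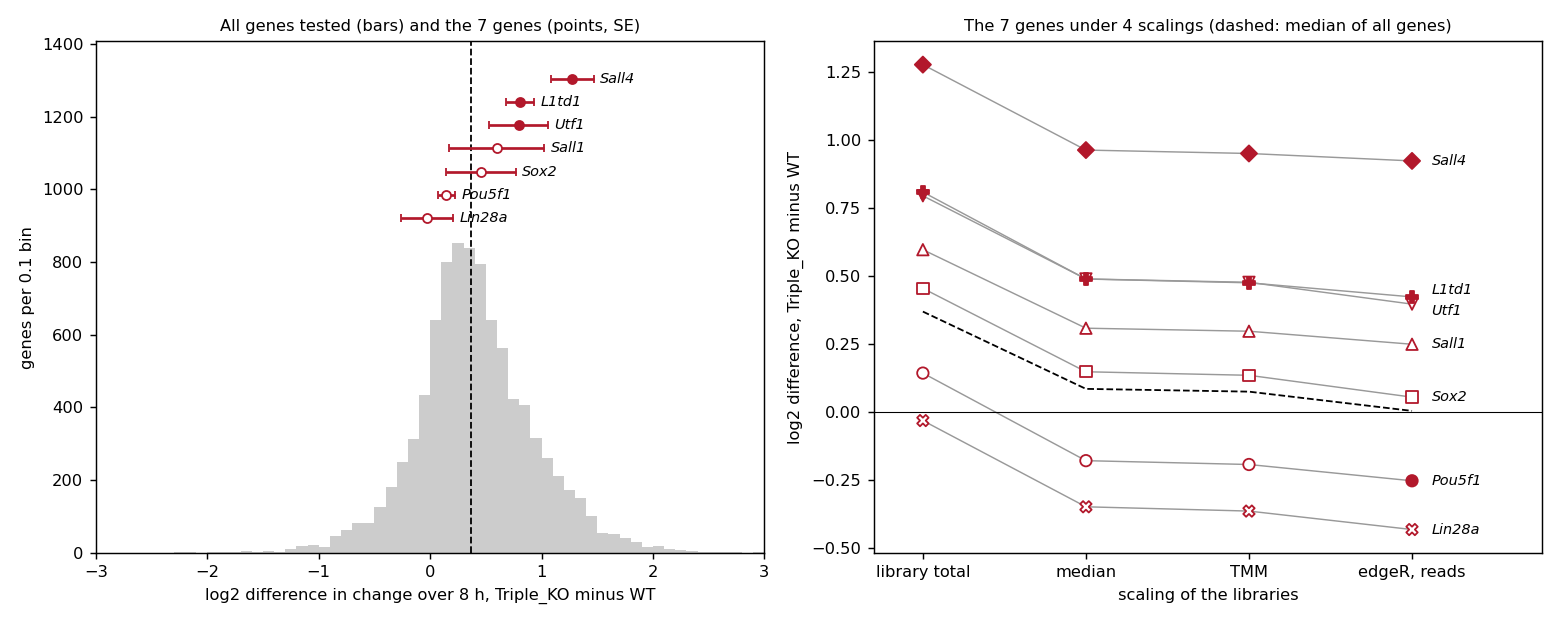
Left, difference between Triple_KO and WT in the change over 8 h (log2) for all 9078 genes tested (bars, genes per bin) with its median (dashed) and the 7 genes (points with standard errors, filled where the test was passed; their height has no meaning). Right, the same difference under 4 scalings of the libraries, where Sall4 and L1td1 stay filled and Pou5f1 goes below 0.

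Set against the mean of the 3 single knockouts, Triple_KO had a higher change over 8 h in 6 of the 7 genes, all except Lin28a (-0.01 ± 0.19), where 17.0% of all genes passed in either direction. Sall1 differed by 1.27 ± 0.35 (adjusted p = 0.00640), Sall4 by 1.06 ± 0.16 (adjusted p = 3.98e-07), Utf1 by 0.97 ± 0.21 (adjusted p = 0.000582), Sox2 by 0.85 ± 0.25 (adjusted p = 0.0138), L1td1 by 0.70 ± 0.10 (adjusted p = 2.80e-07) and Pou5f1 by 0.31 ± 0.06 (adjusted p = 0.000126). The median of all genes was 0.42, so that Pou5f1 lay below it. At 8 h the lowest Triple_KO library of Sall4, at 87.3 FPM, was above the highest single knockout library, at 64.9 FPM in Ythdf1_KO. For Sall1 the lowest Triple_KO library had 10.8 FPM and the highest single knockout library 10.1 FPM, in Ythdf1_KO. With TMM or median scaling only Sall4 was called (0.69 and 0.67), and Pou5f1 lay below 0 (-0.06 and -0.08), while over all genes 165 of 8834 were called with TMM and 167 of 8834 with median scaling, against 1545 of 9078 without. With edgeR 4 of the 7 were called, Sall1 (0.93), Sall4 (0.61), Utf1 (0.56) and L1td1 (0.26), where 559 of 9078 genes were. The calls of Sall1 and Sox2 were lost without either Triple_KO replicate (1.22 and 1.33, and 0.67 and 1.02), and that of Sox2 also without Ythdf1_KO replicate A (0.72). This comparison shares the Triple_KO libraries with the one against WT.

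At 4 h the groups of 2 libraries already differed. Sall4 had 147 and 158 FPM in Triple_KO, 99.9 and 95.1 FPM in Ythdf1_KO, 97.2 and 89.0 FPM in Ythdf2_KO and 60.4 and 63.2 FPM in Ythdf3_KO, against 69.7 and 73.4 FPM in WT. Both Triple_KO libraries lay above all others. Over the first 4 h Sall4 changed by -0.11 in Triple_KO, which did not pass, and by -1.02 in WT, and over the second 4 h by -0.68 in Triple_KO and -1.05 in WT. The 4 h difference in loss between Triple_KO and WT passed for Sall4 (0.91 ± 0.19, adjusted p = 0.00250) and L1td1 (0.69 ± 0.12, adjusted p = 0.000242), 2 of the 7 genes, where 1.55% of all genes passed. Against the single knockouts it passed for 3 of the 7, Sall4 (0.76 ± 0.16), Sall1 (1.32 ± 0.35) and L1td1 (0.49 ± 0.10), where 1.81% of all genes passed. The median of all genes was 0.24 against WT and 0.23 against the single knockouts. Sall1 rests on 7 to 18 reads at 4 h in the single knockouts. With edgeR 3 of the 7 were called against WT, where 270 of 9078 genes were. Against the single knockouts edgeR called 2 of the 7, where limma called 3, and its share over all genes is not given here.

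Within the first 4 h, Triple_KO had 3 of the 7 genes called, Sox2 (-2.02 ± 0.22) and Utf1 (-0.82 ± 0.19) lower and Pou5f1 (0.32 ± 0.05) higher, with 10.9% of genes called. Ythdf1_KO had 6 of the 7 called (27.5% of all genes), Ythdf2_KO 7 (25.9%), Ythdf3_KO 6 (30.9%) and WT 6 (30.9%). Ythdf2_KO was the genotype in which Lin28a passed, with 36.3 and 44.9 FPM at 4 h, against 52.8, 57.5, 61.7 and 57.3 FPM at 0 h, a change of -0.49 ± 0.16 (adjusted p = 0.0191). The difference of this change between Ythdf2_KO and WT did not pass (-0.65 ± 0.23, adjusted p = 0.672). The median of all genes over 4 h in Ythdf2_KO was -0.32, and 40.3% of genes changed by the value of Lin28a or lower. With edgeR 5 of the 7 genes were called over 4 h in Ythdf2_KO, where 2520 of 9078 genes were. In the 4 h differences between single knockouts and WT limma and edgeR called 0 of the 7 genes, where 0% of all genes passed in Ythdf1_KO, 0.0220% in Ythdf2_KO and 0.0110% in Ythdf3_KO, and 0, 2 and 1 of the 7 had an unadjusted p under 0.05. Of all 9078 genes, 490, 538 and 580 had such a p in that order.

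The single knockouts were compared with WT in the same way, and limma called 0 of the 7 genes in each. Of all genes, 0.0441% passed in Ythdf1_KO, 0.176% in Ythdf2_KO and 0.330% in Ythdf3_KO, and edgeR likewise called 0 of the 7. At an unadjusted p under 0.05 there was 1 gene in Ythdf1_KO, L1td1 (0.26 ± 0.12), 1 in Ythdf2_KO, Pou5f1 (-0.21 ± 0.08), and 3 in Ythdf3_KO, Sall1 (-1.18 ± 0.43), Pou5f1 (-0.19 ± 0.08) and Sox2 (-0.62 ± 0.31). Of all 9078 genes, 470, 647 and 559 had such a p in that order. Sall1 in Ythdf3_KO had 5.63 and 6.83 FPM at 4 h and 3.06, 5.22, 7.24 and 5.60 FPM at 8 h. It thus started above WT and was not above it at 8 h, where WT had 6.02 to 10.6 FPM. The 8 h values rest on 4 to 9 reads in Ythdf3_KO and 6 to 12 in WT. A difference that misses the threshold does not show that the genotypes lose these genes alike. The standard errors here are as large as those of the comparison of Triple_KO with WT.

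Trim71 did not pass the filter on low values. It had 0 to 2.77 FPM at 0 h in Triple_KO, 2.14 to 6.25 FPM in Ythdf1_KO, 0 to 2.99 FPM in Ythdf2_KO, 1.53 to 5.79 FPM in Ythdf3_KO and 0 to 5.07 FPM in WT. At most 11 reads were counted in any library, and 0 reads in 6 of 50, which allows up to 1.62 to 3.38 FPM there (3 reads; counting error only). At 8 h the ranges of all genotypes lay between 0 and 3.66 FPM and overlapped. Without the filter limma called Trim71 in 1 of 14 comparisons, the loss over 8 h in Ythdf1_KO (-1.74, adjusted p = 0.02185), where 3 of the 4 libraries had 0 reads at 8 h and the fourth had 2.

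Genes that work with the members were taken as 3 lists. Of 20 partners and targets of OCT4 and SOX2, 18 were tested. In Triple_KO at 0 h 3 were higher and 4 lower, where 21.9% of all genes were called. Fbxo15, an F-box gene long used as a marker of the pluripotent state, had 78.6 to 92.5 FPM in Triple_KO, against 31.3 to 35.8 FPM in WT (1.28 ± 0.11, adjusted p = 1.84e-22). Each single knockout also lay above WT for Fbxo15 at 0 h and overlapped Triple_KO. The ranges were 64.6 to 84.1 FPM in Ythdf1_KO, 69.2 to 88.4 FPM in Ythdf2_KO and 63.1 to 80.1 FPM in Ythdf3_KO. Tdgf1, which encodes the Nodal coreceptor Cripto, had 227 to 237 FPM in Triple_KO, against 318 to 358 FPM in WT (-0.52 ± 0.05, adjusted p = 1.67e-17). Over 8 h 13 of the 18 fell in Triple_KO and 16 in WT, with medians of -1.29 in Triple_KO and -1.58 in WT; of all genes, 29.2% were called in Triple_KO and 56.9% in WT, with medians of -0.39 in Triple_KO and -0.81 in WT. Fgf4, a growth factor gene bound by OCT4 and SOX2, fell by 2.72 ± 0.25 in WT, and Mybl2, a cell cycle transcription factor, by 1.44 ± 0.10. The difference in loss between Triple_KO and WT passed for 3 of the 18 (Mybl2, Nr0b1 and Nacc1), all above 0, with a median of 0.57, where 7.24% of all genes passed and their median was 0.37, while edgeR called 2, Mybl2 above 0 and Spp1 below 0. Over all 9078 genes edgeR called 223 above 0 and 201 below, and limma 655 above 0 and 2 below. Mybl2 (0.81 ± 0.14, adjusted p = 2.73e-05) had 131 to 154 FPM at 8 h in Triple_KO, against 59.9 to 82.2 FPM in WT, which do not overlap. Nr0b1, which encodes the nuclear receptor DAX1 (0.80 ± 0.24, adjusted p = 0.0240), had 33.0 to 45.4 FPM in Triple_KO, against 29.9 to 47.2 FPM in WT, which overlap, and at 0 h it had 40.4 to 51.5 FPM in Triple_KO and 71.8 to 80.2 FPM in WT.

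Of 11 subunits of NuRD, the complex that SALL proteins recruit, 10 were tested. In Triple_KO at 0 h 2 were higher and 2 lower, where 21.9% of all genes were called, with Rbbp7, a histone-binding subunit, at 0.34 ± 0.08 (adjusted p = 0.000273) and Hdac2, a deacetylase, at -0.29 ± 0.10 (adjusted p = 0.0205). Over 8 h 2 of the 10 fell in Triple_KO, where 29.2% of all genes were called, and 4 in WT, where 56.9% were, among them in WT Mta2 (-1.02 ± 0.15) and Rbbp7 (-0.50 ± 0.12). With TMM scaling Rbbp7 lay above 0 in WT (0.18), and with edgeR it passed as higher (0.25). In the difference in loss between Triple_KO and WT limma called 0 of the 10, with 1 at an unadjusted p under 0.05, and edgeR called 1, Chd4, below 0. Of all 9078 genes, limma called 657, and 1782 had an unadjusted p under 0.05. With edgeR 424 of them were called, 223 above 0 and 201 below. The smallest limma p-values of the 10 belonged to Mbd3 (0.50 ± 0.18, adjusted p = 0.0828) and Hdac2 (0.36 ± 0.21, adjusted p = 0.347). The median of the 10 was 0.22, against 0.37 for all genes.

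Of 15 genes of the LIN28, TRIM71 and let-7 axis, 14 were tested. In Triple_KO at 0 h 3 were higher and 1 lower, where 21.9% of all genes were called. Mycn, which let-7 is known to repress, had 48.1 to 68.4 FPM in Triple_KO, against 24.1 to 37.1 FPM in WT (0.84 ± 0.14, adjusted p = 1.57e-07). Cdkn1a, a cell cycle inhibitor whose mRNA TRIM71 is known to repress, had 123 to 144 FPM in Triple_KO, against 69.7 to 90.9 FPM in WT (0.77 ± 0.10, adjusted p = 3.66e-12). Over 8 h 5 of the 14 fell and 1 rose in Triple_KO, and 10 fell and 1 rose in WT, where 55.2% of all genes were called lower and 1.73% higher, against 29.2% called in either direction in Triple_KO. In WT Mycn fell by 3.21 ± 0.38 and Igf2bp1, an RNA-binding protein gene, by 1.27 ± 0.12. In the difference in loss between Triple_KO and WT limma called 0 of the 14, with 3 at an unadjusted p under 0.05, and edgeR called 3, Cdkn1a, Hmga1 and Igf2bp1, all below 0. Of all 9078 genes, limma called 657, and 1782 had an unadjusted p under 0.05. With edgeR 424 of them were called, 223 above 0 and 201 below. The smallest limma p-values of the 14 belonged to Cdkn1a (-0.67 ± 0.27, adjusted p = 0.122) and Drosha, the nuclease that starts microRNA processing (0.33 ± 0.15, adjusted p = 0.191). The median of the 14 was 0.31, against 0.37 for all genes.

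Over the 30 replicate means, which share the actinomycin D time course and the library scaling, the 5 falling genes ran together. Pearson's r of log2(FPM + 1) was 0.81 to 0.97 between any 2 of Sox2, Sall4, Sall1, Utf1 and L1td1, highest for Utf1 and L1td1. Pou5f1 ran against them (-0.61 to -0.41), and Lin28a had an r of -0.19 to 0.13 with every other member. The genes most like each member by this measure were Jade1 (0.975) and Tbx3 (0.97) for Sox2, Fam166a (0.97) and Tubb4b (0.97) for Sall4, Zfp622 and Champ1 (both 0.94) for Sall1, Nop56 (0.98) and Tacc2 (0.97) for Utf1, and Hspa8 and Nifk (both 0.98) for L1td1. For Pou5f1 they were Eif5a and Cfl1 (both 0.89), and for Lin28a, at lower values, Aire (0.68) and Pclaf (0.64). These values are descriptions across conditions with no test.

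Replicates A and B of a group differed about as much as duplicates of 1 replicate did, with a median chi-square per degree of freedom of 1.35 over 45 pairs and 1.39 over 20 pairs, and in 0 pairs was the p above 0.05. What the p-values measure is therefore the spread between these samples, part or all of which can be technical. Whether it holds any spread between cultures or clones cannot be told.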

How the data were processed

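Poly(A) RNA was sequenced from its 3′ end in 50 libraries. The deposited values are FPM, reads of a RefSeq transcript scaled by the authors to the library total and thus RPM values with no length correction. CASAVA 1.8.2, Bowtie2 and mm10 were used, per the submitters' processing notes. Use of strand, treatment of multiply mapped reads and the annotation version are not given in the sources used here. All values were whole reads within 0.1 read (100%), so counts could be recovered from totals of 796921 to 2341410 reads, whose number limits the precision of low genes. The 22338 transcripts were named through RefSeq GRCm38.p6 (21729) or GENCODE M21 (120), identical values of 1 gene were counted once (2169 dropped) and distinct ones were summed, which gave 19455 genes.

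The mean of duplicates on the log2(FPM + 1) scale was 1 replicate; this scale makes fold changes of low genes too small. The filter asked for 5 FPM or more in 2 or more replicate means. Tests were limma 3.58 (R 4.3; Python 3.11 for tables), with the trend option of its empirical Bayes step and p-values adjusted by Benjamini-Hochberg over all tested genes at 0.05. Levels at 0 h were fitted on 10 replicate means, and losses and their differences, as genotype by time terms, on 30. In simulated libraries of the same size the test of 0 h levels recovered most of the changed genes and that of differences in loss only few. Alternatives were pseudocounts of 0.5 and 5, no filter, TMM and median scaling, each library as its own sample, a replicate block, the highest RefSeq entry only, edgeR 4.0 on recovered reads, 0 h levels fitted on all times, 4 h in place of 8 h, and each replicate left out. With a replicate left out, the lone sample of a group was assumed to vary like the other groups.

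The 8 genes and all lists were chosen with earlier results of these data known. Named besides the 8 genes were the 2 smallest p-values of each list in 3 comparisons, the 2 genes most correlated with each member, and Ythdf1, Ythdf2 and Ythdf3. Nacc1, Spp1, Chd4 and Hmga1 were named after their values were seen.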

Additional observations from a re-analysis of the deposited data

Results flagged for a closer look

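Among 80 groups of 4 libraries, 1 for each gene, genotype and time with 4 libraries, 2 had a library far from the others. Chance alone gives about 1 in 20. In Ythdf1_KO at 0 h, Sall1 had 34.17 FPM in 1 library and 25.7 to 26.3 FPM in the other 3. In Ythdf1_KO at 8 h, Trim71 had 2.51 FPM in 1 library, on 2 reads, and 0 in the other 3.

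By the genotype by time test, several of the 8 genes changed differently over time between genotypes, as did genes of the 3 lists, of which Mybl2 and Nr0b1 are given here. Over 8 h, Triple_KO minus WT, the values were Sall4 (1.28), L1td1 (0.81), Utf1 (0.79), Mybl2 (0.81) and Nr0b1 (0.80), on the log2 scale. There 7.24% of all genes passed and the median of all genes was 0.37, and Utf1 did not pass with TMM scaling, median scaling or edgeR. Against the mean of the single knockouts, those of the 8 genes were Sall1 (1.27), Sall4 (1.06), Utf1 (0.97), Sox2 (0.85), L1td1 (0.70) and Pou5f1 (0.31). In that comparison 17.0% of all genes passed and the median of all genes was 0.42, above the value of Pou5f1. Over 4 h those of the 8 genes were Sall4 (0.91) and L1td1 (0.69) against WT, and Sall1 (1.32), Sall4 (0.76) and L1td1 (0.49) against the single knockouts. Of all genes, 1.55% and 1.81% passed in that order, with medians of 0.24 and 0.23.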

How the results depend on the processing

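Of the values for single genes, 1446 stayed on the same side of the threshold under an alternative. The threshold was lost by 83 and gained by 30, and 11 reversed, changing sign with the test passed before, after or both. The 1446 include values that changed sign but passed in neither setting, such as Pou5f1 in Triple_KO minus WT with TMM scaling. The cause of these changes was not tested. Below, counts of members are mainly those that moved furthest. At 0 h, the members called in Ythdf1_KO (0) were 1 with a pseudocount of 5, median scaling, a replicate block or edgeR, and 0 to 1 with a replicate left out. Those called in Ythdf2_KO (1) were 0 with no filter, TMM or median scaling, each library as its own sample, edgeR or the fit on all times, and 0 to 1 with a replicate left out. In Ythdf3_KO (1) there were 0 in the fit on all times and 0 to 2 with a replicate left out. In Triple_KO (2) there were 1 with a pseudocount of 0.5, each library as its own sample or the fit on all times, 0 with no filter, and 1 to 2 with a replicate left out. With TMM scaling and with edgeR there were 3 in Triple_KO at 0 h, where 1811 of 8167 and 1815 of 8697 genes were called. For the difference in loss over 8 h, Triple_KO minus WT (3), there were 2 to 3 over the alternatives other than a left-out replicate. For the loss in Triple_KO (6) there were 3 at 4 h. For Triple_KO minus the single knockouts (6) there were 1 with TMM scaling, 1 with median scaling and 3 at 4 h. The reversed values were Lin28a in WT (TMM 0.65, median scaling 0.43, edgeR 0.74) and in Ythdf2_KO (TMM 0.45, edgeR 0.57), Rbbp7 in WT (TMM 0.18, edgeR 0.25), Pou5f1 in Triple_KO minus WT (edgeR -0.25) and Pou5f1 in Triple_KO minus the single knockouts (TMM -0.064, median scaling -0.082, edgeR -0.12).

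Counts over all genes moved as well. In Triple_KO at 0 h 1906 genes were called (557 to 1960 over the alternatives), 1241 higher and 665 lower, against 964 higher and 847 lower with TMM. The loss in Triple_KO called 2654 (992 to 3700) and that in WT 157 higher and 5007 lower, against 1402 higher and 2234 lower with TMM. Triple_KO minus WT called 657 (141 to 1090), 655 higher and 2 lower, against 108 higher and 44 lower with TMM and 223 higher and 201 lower with edgeR. Triple_KO minus the single knockouts called 1545 (164 to 2183). The single knockouts at 0 h ran from 20 to 264 in Ythdf1_KO, 138 to 799 in Ythdf2_KO and 59 to 487 in Ythdf3_KO.

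Replicate letters did not pair the samples: correlations of the A minus B difference between genotypes at 0 h were -0.023 to 0.020 over 10 pairs. With the replicate block the members called changed in Ythdf1_KO at 0 h, to 1, and in no other comparison.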
